A study of Homo sapiens with 9 samples.

Results

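The WNT ligands WNT3, WNT4, WNT5A, WNT5B, WNT6 and WNT11 and the secreted antagonists DKK1, SFRP1, FRZB and CER1 were followed in wild-type HNES1 cells, a human naive pluripotent stem cell line derived from an embryo. These 10 genes were taken by symbol from the count table, and all 10 were found among its 56312 entries. The table holds 9 RNA sequencing libraries collected on day 5 of leaving the naive state for a primed-like one, 3 per group. Group DMSO received the vehicle. Group PROTAC received UNC6852 at 2.5 µM, a degrader of EED, the subunit of Polycomb repressive complex 2 (PRC2) that reads its own mark. Group UNC received UNC1999 at 1 µM, an inhibitor of the catalytic subunits EZH1 and EZH2. Treatment began 1 day ahead of the switch out of naive medium, and fresh compound or DMSO was supplied daily until harvest.

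Every group, controls included, was also given XAV939, a tankyrase inhibitor that stabilises AXIN and so dampens WNT/beta-catenin signalling, both in the naive medium and through all 5 days of the transition. The naive medium also held PD0325901, Gö6983 and LIF in every group, and the line had been maintained on mouse embryonic fibroblast feeders before it was seeded on Geltrex. All 9 libraries thus come from 1 line under WNT pathway inhibition, and the design holds no group without XAV939.

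WNT proteins are secreted, lipid-modified ligands that bind Frizzled receptors. With the co-receptors LRP5 and LRP6 they stabilise beta-catenin, which then acts with TCF/LEF factors on target genes, whereas other ligands signal through ROR or planar polarity routes. Antagonists either bind the ligand, as SFRP1 and FRZB do, or the co-receptor, as DKK1 does, while CER1 binds NODAL and BMP ligands. In the early embryo WNT3 and antagonists such as DKK1 and CER1 pattern the primitive streak, and several WNT genes carry CG-rich promoters of the kind PRC2 often marks.

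The promoter sequences of the members on which the results turn are shown here to compare their CG content. Each is the 250 bases before a RefSeq transcription start (GRCh38.p14), written 5′ to 3′ on the strand of the gene, with every CG dinucleotide in capitals. WNT6 lies on the plus strand (chr2:218859555-218859804), WNT3 on the minus strand (chr17:46818693-46818942), WNT5B on the plus strand (chr12:1616806-1617055, the first of 2 promoters) and CER1 on the minus strand (chr9:14722734-14722983).
WNT6: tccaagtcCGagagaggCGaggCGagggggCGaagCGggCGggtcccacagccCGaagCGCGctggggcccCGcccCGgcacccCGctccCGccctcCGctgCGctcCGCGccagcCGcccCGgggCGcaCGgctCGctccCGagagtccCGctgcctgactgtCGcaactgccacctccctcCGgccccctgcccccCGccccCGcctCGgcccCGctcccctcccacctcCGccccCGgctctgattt
WNT3: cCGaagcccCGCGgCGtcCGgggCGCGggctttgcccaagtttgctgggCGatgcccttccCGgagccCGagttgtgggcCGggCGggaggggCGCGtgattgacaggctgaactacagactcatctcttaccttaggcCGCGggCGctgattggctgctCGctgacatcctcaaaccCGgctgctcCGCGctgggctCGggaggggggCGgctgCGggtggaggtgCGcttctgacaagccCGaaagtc
WNT5B: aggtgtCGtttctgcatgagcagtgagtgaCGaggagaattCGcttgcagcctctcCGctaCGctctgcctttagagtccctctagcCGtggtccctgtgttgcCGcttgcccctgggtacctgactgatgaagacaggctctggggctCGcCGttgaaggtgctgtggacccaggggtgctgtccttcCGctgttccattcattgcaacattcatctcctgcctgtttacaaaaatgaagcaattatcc
CER1: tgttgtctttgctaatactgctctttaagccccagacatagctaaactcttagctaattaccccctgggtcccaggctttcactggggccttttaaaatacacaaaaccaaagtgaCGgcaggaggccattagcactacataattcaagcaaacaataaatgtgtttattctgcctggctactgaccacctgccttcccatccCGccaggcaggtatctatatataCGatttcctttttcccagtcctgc
The WNT6 window holds 32 CG dinucleotides, the WNT3 window 26, the WNT5B window 10 and the CER1 window 3. Over the 35116 RefSeq promoters of the same length the median was 11 and the quartiles were 3 and 23. WNT6 thus sits at percentile 90.5, WNT3 at 80.4, WNT5B at 47.8 and CER1 at 22.9. Promoter windows of 8 of the 10 members were used, 10 windows in all. The windows of WNT3, WNT4, WNT5A and WNT5B lie inside the counted entries of these genes and not at the entry starts. For WNT5B the entry starts at 1529891, ahead of both windows, so their CG content need not be that of the entry start. No window was used for WNT11 or SFRP1, so the CG content and motifs of their promoters were not examined. WNT4 had the most CG dinucleotides of these windows, 40, the second WNT5B promoter had 7, FRZB had 11, and the WNT5A promoters had 14 and 18. CG content therefore differed widely among the members. No histone mark was measured in these libraries.

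**Figure D1:**
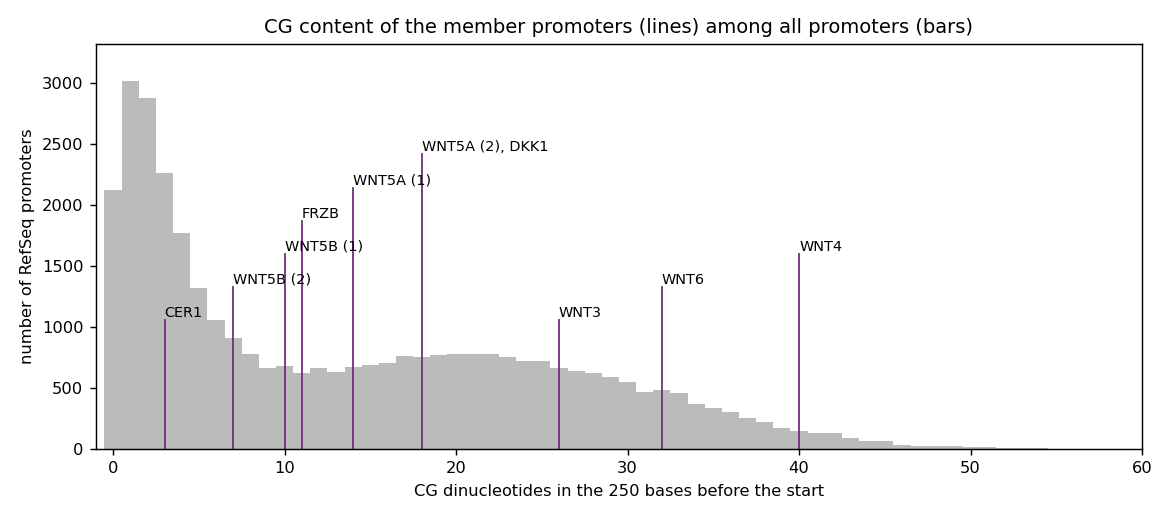
Number of CG dinucleotides in the 250 bases before the transcription start (x axis) for all RefSeq promoters (grey bars, number of promoters on the y axis) and for the members (purple lines, with the promoter number where a gene has more than 1). WNT4 at 40 and WNT6 at 32 lie to the right of the upper quartile of 23, and CER1 at 3 lies at the lower quartile.

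DKK1 is shown because its promoter alone among these windows held a TCF/LEF-type motif. The letters searched were CTTTGAA and CTTTGAT on both strands, and TATAAA on the strand of the gene. Capitals mark the matches on the plus strand of chr10:52314031-52314280.
DKK1: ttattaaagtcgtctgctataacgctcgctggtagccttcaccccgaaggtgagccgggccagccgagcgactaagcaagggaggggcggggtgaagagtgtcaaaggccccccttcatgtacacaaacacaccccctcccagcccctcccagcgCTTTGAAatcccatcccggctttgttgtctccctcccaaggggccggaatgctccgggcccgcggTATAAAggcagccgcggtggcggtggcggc
CTTTGAA begins 95 bases before the start and TATAAA begins 30 bases before it. Of all RefSeq promoters of this length, 5.94% held CTTTGAA or CTTTGAT and 6.80% held TATAAA. Both matches are on the strand of the gene and do not overlap each other.

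Levels are given as CPM, read counts scaled to the TMM-adjusted library size, and between genes as CPM per kilobase of merged exons from GENCODE 29, whose gene models may differ from those used for counting. WNT5B and WNT3 were the most abundant members, with mean levels over the 9 libraries of 10.3 and 8.55 CPM per kb. In DMSO they stood at 8.78 ± 0.461 and 8.02 ± 0.403 CPM per kb (SD, n = 3), so this pair did not differ beyond the sum of their SDs. SFRP1 followed at 2.30 and WNT6 at 1.23 CPM per kb over all libraries, and in DMSO their levels of 2.01 ± 0.349 and 1.70 ± 0.303 (SD, n = 3) were also within their spread. WNT11 at 0.683, WNT4 at 0.373 and WNT5A at 0.208 CPM per kb came next. FRZB, CER1 and DKK1 were lowest, at 0.0610, 0.0369 and 0.0241 CPM per kb.

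The cells carried the pluripotency markers POU5F1 at 677 to 792 CPM, NANOG at 431 to 528 CPM and SOX2 at 92.6 to 134 CPM in all 9 libraries. Library totals ran from 31651742 counts (PROTAC replicate 3) to 101081643 counts (UNC replicate 1). Of all entries, 24187 genes passed the expression filter, and with them 8 of the 10 members. DKK1 and CER1 did not pass and were not tested. Differences between groups in this bulk RNA can come from fewer cells that express a gene or from less RNA per cell, which cannot be told apart. The edgeR quasi-likelihood model was fitted by group alone and with the replicate number as a block (the paired fit), and both are given because the block changed several calls.

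**Figure D2:**
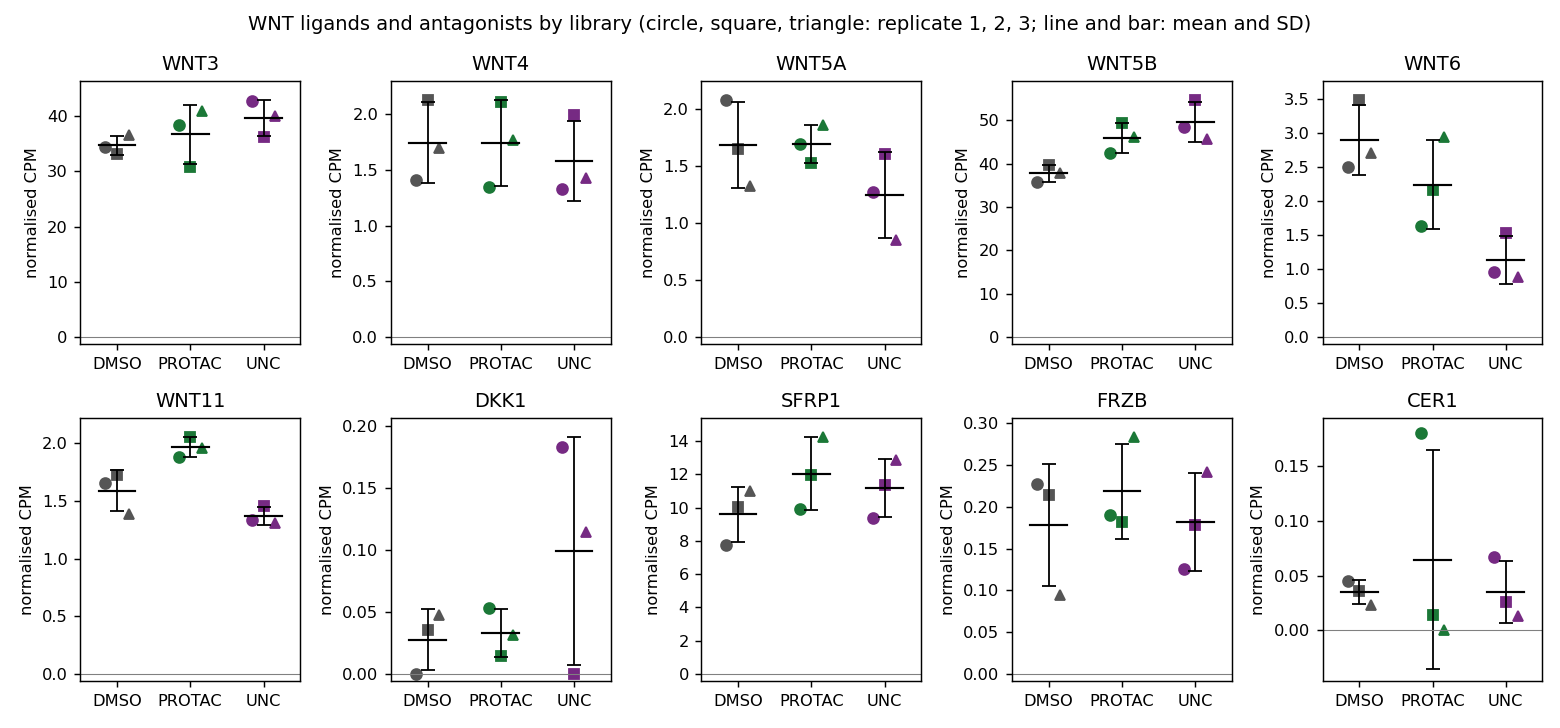
Normalised CPM (y axis, a separate scale for each gene) of the 10 members in the DMSO, PROTAC and UNC groups (x axis), with a circle, square and triangle for replicates 1, 2 and 3, and a line and bar for mean and SD. The 3 UNC libraries lie below all DMSO libraries for WNT6 and above them for WNT5B.

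WNT6, a ligand known for driving mesenchyme to form epithelium in kidney and somites, showed the largest difference of the tested members, a fall under UNC1999. Its level was 2.50, 3.48 and 2.71 CPM in DMSO replicates 1, 2 and 3 (165, 293 and 115 counts). It was 1.63, 2.15 and 2.93 CPM in PROTAC (154, 154 and 93 counts). In UNC it was 0.962, 1.53 and 0.890 CPM (100, 60 and 70 counts). All 3 UNC libraries were below all DMSO and all PROTAC libraries, while PROTAC and DMSO overlapped, since PROTAC replicate 3 was above 2 of the DMSO libraries. The mean over 3 libraries was 2.90 ± 0.516 CPM with DMSO, 2.24 ± 0.657 with UNC6852 and 1.13 ± 0.350 with UNC1999 (SD, n = 3).

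Against DMSO, WNT6 fell in UNC, with a log2 fold change of -1.40 (SE 0.265, edgeR adjusted p = 0.0369 by group alone), lower in 3 of 3 pairs of libraries with the same number. The paired fit gave the same -1.40 with an SE of 0.187 and an adjusted p of 1.26e-06. In PROTAC the log2 fold change was -0.41 (95% interval -0.96 to 0.14, adjusted p = 0.993), lower in 2 of 3 pairs. The paired fit gave -0.43 (adjusted p = 0.204), and -0.69 (adjusted p = 0.0462) without PROTAC replicate 3. By group alone the UNC call did not hold without DMSO replicate 1, 2 or 3 (adjusted p 0.0801, 0.130 and 0.0883), PROTAC replicate 3 (0.0501) or UNC replicate 3 (0.153), or without replicate number 2 (0.209) or 3 (0.571) of every group. In the paired fit it held without each library in turn and without each replicate number.

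WNT6 lies on chromosome 2 from 218859805 to 218874233 (GRCh38, ENSG00000115596), 6619 bases before WNT10A on the same strand. WNT10A was low: its mean was 0.261 ± 0.0670 CPM with DMSO, 0.281 ± 0.0245 with UNC6852 and 0.165 ± 0.0454 with UNC1999 (SD, n = 3). Its log2 fold change in UNC against DMSO was -0.68 (SE 0.410, edgeR adjusted p = 0.558), so the neighbour did not pass the test.

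WNT5B, a ligand that acts mostly without beta-catenin, was higher in both treated groups than in DMSO. Its level was 35.7, 39.7 and 37.9 CPM in DMSO replicates 1, 2 and 3 (2357, 3342 and 1608 counts). In PROTAC it was 42.4, 49.4 and 46.1 CPM, and in UNC 48.5, 54.7 and 45.8 CPM. All 6 treated libraries were above all 3 DMSO libraries, and the treated groups overlapped each other.

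Against DMSO the log2 fold change of WNT5B was 0.28 in PROTAC (SE 0.0873) and 0.39 in UNC (SE 0.0872), higher in 3 of 3 pairs each time. By group alone neither passed, with edgeR adjusted p of 0.938 and 0.0618. In the paired fit WNT5B rose in both, by 0.28 (SE 0.0584, adjusted p = 0.00413) in PROTAC and 0.39 (SE 0.0580, adjusted p = 6.13e-06) in UNC. The PROTAC call was lost without replicate number 2 (adjusted p = 0.144) or 3 (0.0541) of every group, while the UNC call held without each library and each number. Both comparisons share the same DMSO libraries.

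The WNT5B entry spans chromosome 12 from 1529891 to 1647212 on the plus strand and contains FBXL14 on the other strand, and the strand setting of the counting is not given in the sources used here. FBXL14 had 21.5 ± 0.939 CPM with DMSO, 22.5 ± 1.96 with UNC6852 and 21.7 ± 2.56 with UNC1999 (SD, n = 3). Its paired log2 fold changes against DMSO were 0.07 and 0.01 (adjusted p 0.715 and 0.941), so FBXL14 did not pass the test. Other entries, without a gene symbol, also overlap WNT5B. Their levels are not given here, and the sharing of reads was not tested.

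WNT3, the ligand that starts the primitive streak in the mouse embryo, stood at 34.4, 33.2 and 36.7 CPM in DMSO, 38.4, 30.8 and 41.0 CPM in PROTAC and 42.7, 36.2 and 40.0 CPM in UNC. The groups overlapped, and UNC was above DMSO in 3 of 3 pairs. The log2 fold change in UNC was 0.19 (SE 0.104, adjusted p = 0.499) by group alone, and WNT3 rose in the paired fit (0.19, SE 0.0632, adjusted p = 0.0430). That call did not hold without DMSO replicate 1 or 3 or UNC replicate 1 or 2 (adjusted p 0.256, 0.155, 0.269 and 0.201), or without replicate number 1, 2 or 3 of every group (0.294, 0.127 and 0.0743). In PROTAC the value was 0.08 (95% interval -0.15 to 0.30), with 2 of 3 pairs higher.

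**Figure D3:**
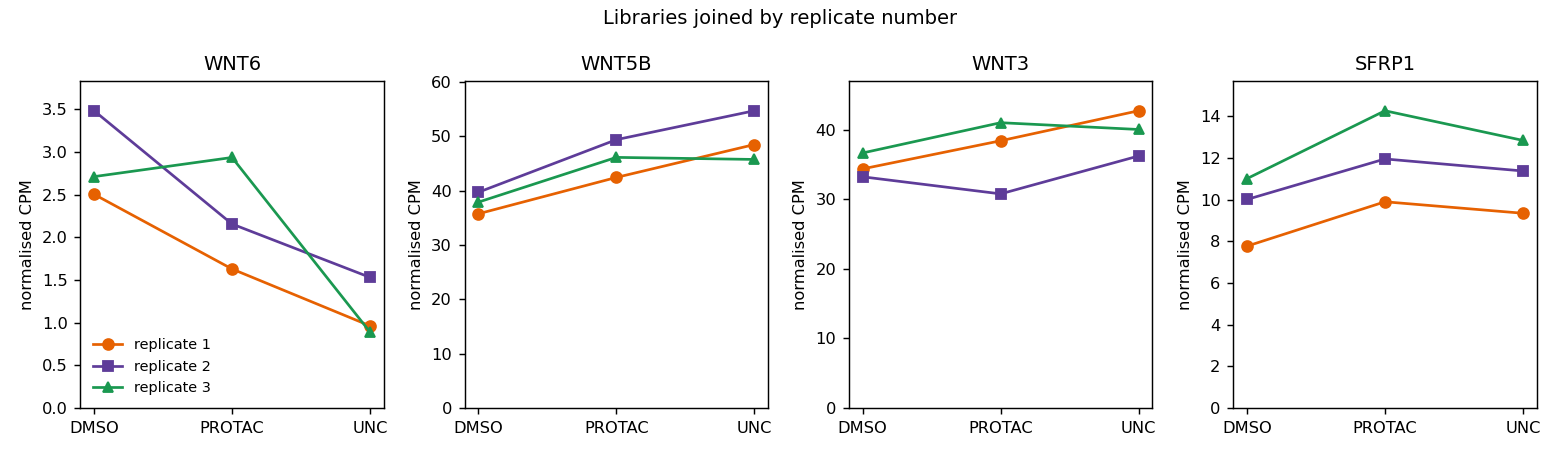
Normalised CPM (y axis) of WNT6, WNT5B, WNT3 and SFRP1 in the 3 groups (x axis), with libraries of the same replicate number joined by a line. For WNT5B and SFRP1 each line rises from DMSO to PROTAC, and for WNT6 each line is lowest in UNC, while PROTAC replicate 3 is the one WNT6 library above its DMSO partner.

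WNT11, a ligand of cell movements at gastrulation, was highest in PROTAC. Its level was 1.65, 1.72 and 1.39 CPM in DMSO, 1.88, 2.06 and 1.96 in PROTAC and 1.34, 1.45 and 1.31 in UNC. The 3 PROTAC libraries were above all others, and UNC overlapped DMSO. The log2 fold changes against DMSO were 0.30 (95% interval -0.09 to 0.69, adjusted p = 0.993) in PROTAC and -0.23 (-0.62 to 0.16, adjusted p = 0.690) in UNC, and neither passed in the paired fit either.

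WNT5A, best known for planar polarity signalling, had 2.08, 1.65 and 1.32 CPM in DMSO, 1.69, 1.53 and 1.86 in PROTAC and 1.27, 1.61 and 0.852 in UNC. The UNC libraries were lower than DMSO in 3 of 3 pairs, but the groups overlapped. The UNC log2 fold change was -0.47 (95% interval -1.01 to 0.08, adjusted p = 0.495), and in PROTAC it was -0.01 (-0.55 to 0.53).

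WNT4, a ligand of kidney and reproductive tract development, had 1.41, 2.13 and 1.70 CPM in DMSO, 1.34, 2.11 and 1.77 in PROTAC and 1.33, 1.99 and 1.42 in UNC. In each group replicate 2 was the highest library, and the groups overlapped. The log2 fold changes were -0.01 (95% interval -0.54 to 0.51) in PROTAC and -0.17 (-0.70 to 0.36) in UNC. Differences within these intervals were not excluded.

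Among the antagonists SFRP1, which binds WNT ligands through a Frizzled-like domain, was the most abundant. Its level was 7.76, 10.0 and 11.0 CPM in DMSO, 9.89, 11.9 and 14.3 in PROTAC and 9.34, 11.4 and 12.8 in UNC. Replicate 1 was lowest and replicate 3 highest in every group, so the groups overlapped although PROTAC exceeded DMSO in 3 of 3 pairs, and UNC did too. Against DMSO the log2 fold change in PROTAC was 0.32 (SE 0.167, adjusted p = 0.991) by group alone, and SFRP1 rose in the paired fit (0.32, SE 0.0839, adjusted p = 0.0248). Leaving out any DMSO or PROTAC library, or any replicate number, took the paired adjusted p to between 0.0629 and 0.250. In UNC the value was 0.22 (SE 0.166, adjusted p = 0.665), and 0.22 with an adjusted p of 0.0718 in the paired fit.

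FRZB, a related Frizzled-domain antagonist, was counted 15, 18 and 4 times in DMSO, 18, 13 and 9 times in PROTAC and 13, 7 and 19 times in UNC, or 0.0943 to 0.284 CPM over all 9 libraries. The groups overlapped, and the intervals of its log2 fold changes, -0.86 to 1.23 in PROTAC and -1.07 to 0.99 in UNC, were the widest of the 8 members tested. A change of the size seen for WNT5B was not detectable at this depth.

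DKK1, which blocks LRP5 and LRP6, was counted 0, 3 and 2 times in DMSO, 5, 1 and 1 times in PROTAC and 19, 0 and 9 times in UNC. UNC replicates 1 and 3 were the highest of all, at 0.183 and 0.114 CPM, while UNC replicate 2 and DMSO replicate 1 had no read. A count of 0 allows a level of up to 0.0765 CPM in UNC replicate 2 and 0.0455 CPM in DMSO replicate 1 (3 counts, counting error only). The groups overlapped, and DKK1 was not tested.

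CER1 was counted 3, 3 and 1 times in DMSO, 17, 1 and 0 times in PROTAC and 7, 1 and 1 times in UNC. PROTAC replicate 1 stood apart at 0.180 CPM, the other 8 libraries were at or below 0.0673 CPM, and PROTAC replicate 3 had no read, which allows up to 0.0947 CPM. With so few reads no difference between groups could be seen.

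By count, 0 of the 8 tested members passed in PROTAC against DMSO by group alone, where 0% of all genes were called, and 1 had an unadjusted p under 0.05 (4.96% of all genes). In the paired fit 2 rose (WNT5B and SFRP1) against 2.99% of all genes called, 2.01% higher and 0.984% lower. Members whose groups did not overlap were 2, both higher (WNT5B and WNT11), beside 11.5% of all genes, 6.07% higher and 5.44% lower. The median log2 fold change of the 8 was 0.13 by group alone, against -0.01 over all genes tested.

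In UNC against DMSO 1 member of 8 fell by group alone (WNT6), beside 0.719% of all genes called, 0.318% higher and 0.401% lower. In the paired fit 2 rose (WNT3 and WNT5B) and 1 fell (WNT6), while 13.5% of all genes were called, 7.04% higher and 6.46% lower. Groups did not overlap for 2 members, WNT5B higher and WNT6 lower, beside 17.4% of all genes, 8.34% higher and 9.07% lower. The median log2 fold change was -0.10 by group alone, against -0.01 over all genes.

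**Figure D4:**
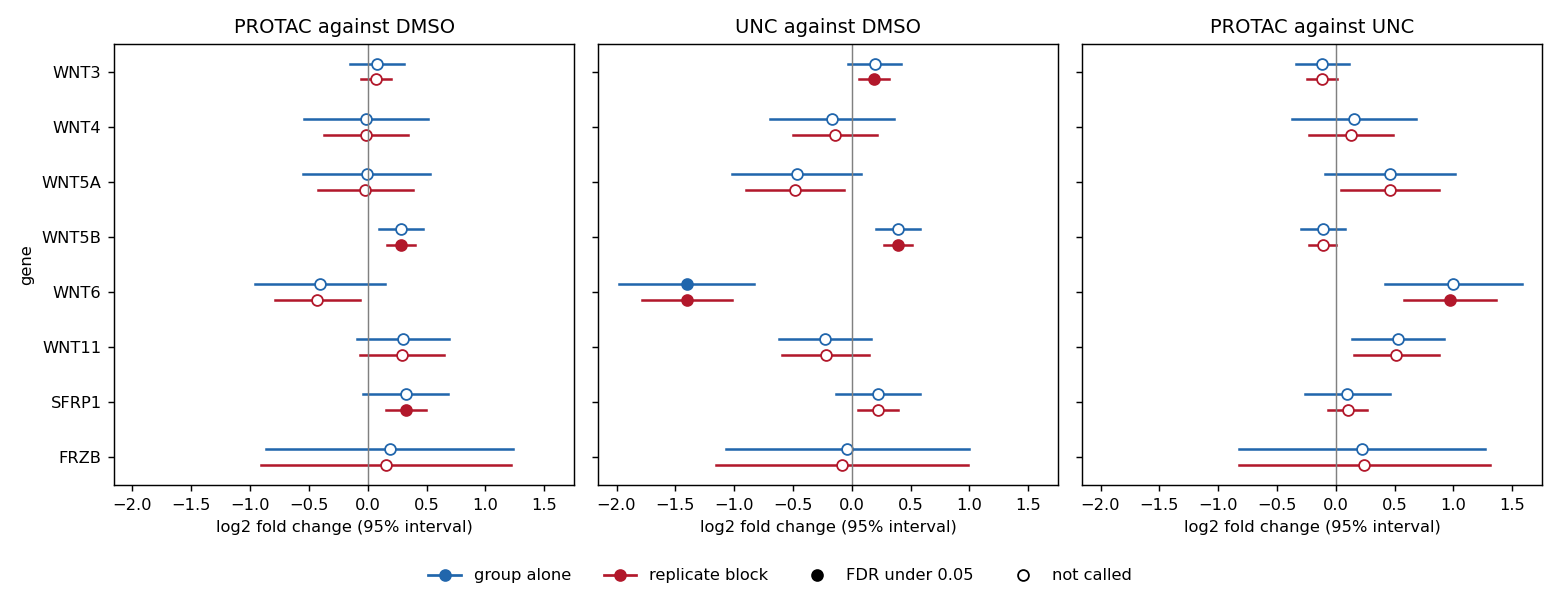
Log2 fold change with its 95% interval (x axis) of the 8 tested members (y axis) in PROTAC against DMSO, UNC against DMSO and PROTAC against UNC, by group alone (blue) and in the paired fit (red); filled points have an adjusted p under 0.05. WNT6 in UNC against DMSO, at -1.40, is filled in both fits, and the paired intervals are narrower than the group-alone ones except for WNT11, where they are similar, and FRZB, where they are slightly wider.

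The 2 compounds were compared directly, with the reservation that their doses, 2.5 µM and 1 µM, and their targets in PRC2 differ. WNT6 was higher in PROTAC than in UNC in all 3 pairs, with a log2 difference of 1.00 (SE 0.268, adjusted p = 0.382) by group alone and 0.97 (SE 0.193, adjusted p = 0.00152) in the paired fit. The paired call was lost without PROTAC replicate 3 (0.70, adjusted p = 0.0559), UNC replicate 3 (0.75, 0.0838) or both of these with DMSO replicate 3 (0.63, 0.175). WNT11 was also higher in 3 of 3 pairs with groups that did not overlap, by 0.53 (95% interval 0.14 to 0.92, adjusted p = 0.723), and did not pass in the paired fit (adjusted p = 0.133).

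For WNT5B the difference between the compounds was -0.11 (95% interval -0.30 to 0.08), for WNT3 -0.11 (-0.34 to 0.11) and for SFRP1 0.10 (-0.26 to 0.46), none past the threshold. In all, 0 of 8 members were called by group alone, beside 0.00827% of all genes, with 2 members at an unadjusted p under 0.05 (4.70% of all genes). In the paired fit 1 was called, WNT6, beside 2.91% of all genes, 2.17% higher and 0.74% lower in PROTAC. Groups did not overlap for 2 members, both higher in PROTAC, beside 9.09% of all genes, 5.16% higher and 3.93% lower.

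The rest of the pathway was read from 9 lists of 101 genes, of which 91 were tested. In UNC against DMSO 1 of the 91 rose and 1 fell by group alone, and 13 rose, 14 fell and 64 did not pass in the paired fit, where 7.04% of all genes were called higher and 6.46% lower. In PROTAC against DMSO the counts were 0 by group alone, and 5 higher and 1 lower in the paired fit, beside 2.01% and 0.984% of all genes. All values that follow are log2 fold changes from the paired fit unless stated otherwise.

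Of the other WNT ligands 12 were tested, and in UNC against DMSO 11 of 12 were negative with a median of -0.46, against -0.01 over all genes. Of these 2 fell, WNT3A (-0.61, adjusted p = 0.0476) and WNT2B (-0.44, adjusted p = 0.0468), and neither passed by group alone. WNT3A, a beta-catenin ligand, went from 1.36 ± 0.0866 CPM in DMSO to 0.889 ± 0.0917 in UNC (SD, n = 3). In PROTAC against DMSO none of the 12 passed in either fit, and their median was -0.01. The lowest UNC values came from few reads: WNT1 (-1.26) had 5 to 19 counts per library and WNT16 (-1.31) had 1 to 15. The most abundant of the 12, WNT9A and WNT10B, had DMSO means of 7.68 and 4.59 CPM. Their UNC values were -0.28 and -0.11, and neither passed. WNT9B lies head to head with WNT3 on chromosome 17, on the other strand. Its entry starts 47 bases from the 5′ start of the WNT3 entry, at 46833154. The WNT3 promoter window printed above, which ends at 46818942, lies inside the WNT3 entry and not at that start. WNT9B had a value of 0.00 in UNC against DMSO.

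Of 9 other antagonists tested, 1 rose and 2 fell in UNC against DMSO. SFRP5, a relative of SFRP1, fell by 0.52 on the log2 scale (adjusted p = 0.00150), opposite in sign to the 0.22 of SFRP1, and DKK3 fell by 0.29 (adjusted p = 0.0441). KREMEN2, a receptor of DKK proteins, rose by 0.29 (adjusted p = 0.0129). SFRP2 had group means of 100 CPM in DMSO and 102 CPM in UNC, and its UNC value was 0.02 (adjusted p = 0.85).

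Among 16 receptors 3 rose and 1 fell in UNC against DMSO. FZD8 (0.46), FZD6 (0.36) and FZD5 (0.15) rose, and FZD2 fell by 0.81. FZD5 stood at 433 ± 15.6 CPM in DMSO and 482 ± 31.9 in UNC (SD, n = 3). In PROTAC against DMSO 1 receptor rose, FZD3 (0.21, adjusted p = 0.0402). Of 6 genes of R-spondin signalling and receptor turnover, the R-spondin receptor LGR4 rose in both groups (0.29 in PROTAC, 0.34 in UNC), LGR6 fell in both (-0.41 and -0.48), and the ubiquitin ligase RNF43 rose in UNC (0.35).

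Of 14 cytoplasmic transducers 3 rose in UNC against DMSO, the tankyrases TNKS (0.18) and TNKS2 (0.19), which are the targets of the XAV939 present in all groups, and DVL2 (0.15). CTNNB1, which encodes beta-catenin, was 0.13 in both groups (adjusted p 0.176 in PROTAC and 0.0753 in UNC). Of 13 TCF/LEF factors and cofactors 2 rose and 3 fell in UNC. TCF7L2 (0.22) and the corepressor TLE4 (0.20) rose, TCF7L1 fell by 0.27 and PYGO1 by 1.03, and in PROTAC TLE4 rose (0.25).

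Of 12 beta-catenin target genes 2 rose and 3 fell in UNC against DMSO. DACT1, which modulates Dishevelled, rose by 0.81 in UNC and 0.38 in PROTAC, from 88.3 ± 8.24 CPM in DMSO to 154 ± 6.16 in UNC (SD, n = 3). The cell cycle gene CCND1 rose in both (0.31 in UNC, 0.30 in PROTAC). TBXT, the primitive streak gene, fell by 1.79, MSX2 by 0.52 and MYC by 0.42 in UNC. DACT1 and TBXT also passed by group alone in UNC (adjusted p 0.00211 and 0.0372). LINC01500, LNCDAT and CASC11 overlap DACT1, TBXT and MYC, so reads may be shared. Other counted entries likewise overlap WNT2B, DKK3, KREMEN2, FZD6, FZD8, PTK7, LGR4, LGR6 and RNF43. The same holds for TNKS2, TLE4, TCF7L2, CCND1, AXIN2, SP5 and CTNNB1.

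The usual reporters of the pathway did not pass. AXIN2 was 0.14 in UNC against DMSO (adjusted p = 0.0883) and 0.11 in PROTAC, SP5 was -0.43 (0.101) and -0.57 (0.0714), and LEF1 was -0.99 (0.209) and -0.73 (0.503). SP5 was below all DMSO libraries in every UNC and PROTAC library, as were 9.07% and 5.44% of all genes. LEF1 had only 5 to 36 counts per library, and its UNC interval of -2.01 to 0.02 was wide. Of 7 planar polarity genes 2 fell in UNC, CELSR3 by 0.21 and CELSR1 by 0.18.

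**Figure D5:**
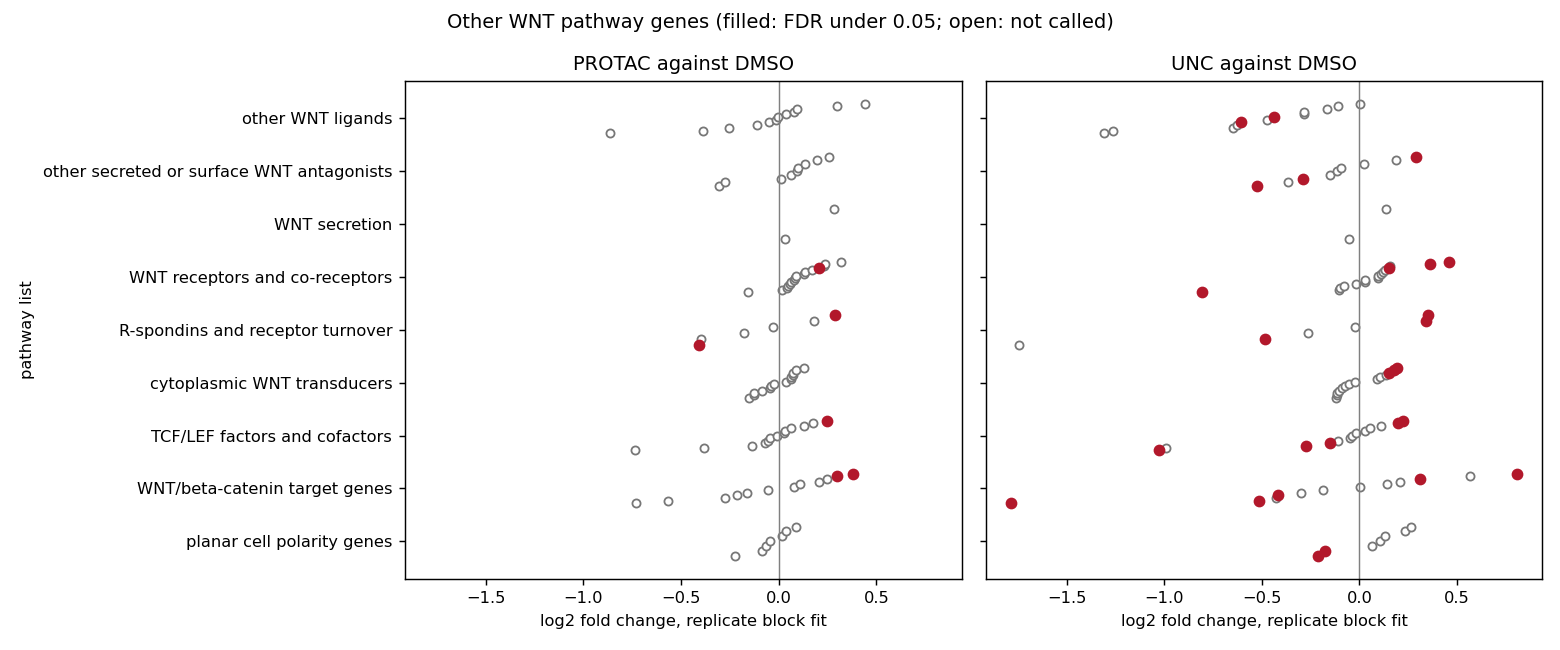
Log2 fold change in the paired fit (x axis) of the 91 tested genes of 9 WNT pathway lists (y axis) in PROTAC against DMSO and UNC against DMSO; each point is a gene, filled where the adjusted p is under 0.05. In UNC against DMSO 13 genes rose and 14 fell, and 11 of 12 other WNT ligands lie left of 0.

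Markers of other cell types are given beside WNT6, and not all of them moved with it. The summed level of 12 trophoblast markers was 136 to 165 CPM in DMSO, 152 to 167 in PROTAC and 125 to 140 in UNC, and 7 of 10 tested fell in UNC against DMSO in the paired fit. In that fit, which the marker counts here all use, 6.46% of all genes were lower and 7.04% higher. TFAP2C alone gave 106 to 133 CPM of that sum. GATA3, a defining trophoblast factor, went from 1.76, 2.94 and 2.17 CPM in DMSO to 0.471, 1.02 and 1.00 in UNC. In PROTAC against DMSO 9 of the 10 were negative and 2 fell, ERVFRD-1 and ERVW-1, beside 0.984% of all genes. Their median log2 fold change was -0.16 in PROTAC and -1.08 in UNC. The counts given for the other lists are for UNC against DMSO. Summed amnion markers were 29.2 to 34.2 CPM in DMSO, 27.0 to 36.8 in PROTAC and 22.2 to 26.9 in UNC, with 2 of 8 lower. Primitive streak and mesoderm markers were 15.5 to 18.5, 11.8 to 16.1 and 9.89 to 11.0 CPM, with 3 of 7 lower. Fibroblast markers were 531 to 555, 507 to 536 and 420 to 467 CPM, with 4 of 6 lower and 1 higher, and LUM at 0 in all libraries. COL3A1, DCN and POSTN of that list reached at most 0.0420, 0.0289 and 0.0765 CPM and, like LUM, were not tested. THY1, the one that rose, was also in the list of primed markers and had a mean of 188 CPM in DMSO. Endoderm markers were higher in UNC, at 83.5 to 102 CPM in DMSO, 103 to 108 in PROTAC and 111 to 117 in UNC, with 2 of 7 higher and 2 lower. Neural and neural crest markers overlapped between DMSO and UNC, at 420 to 449 CPM in DMSO, 459 to 491 in PROTAC and 408 to 455 in UNC. Of 9 tested, 1 was higher and 1 lower in UNC. The primed list had 1 of 9 tested higher and 3 lower in UNC, and the naive list had 2 of 9 higher and 1 lower. The part of these marker genes, or of any cells that carry them, in the WNT6 result was not tested.

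The genes whose log2 CPM followed a member most closely over the 9 libraries, among 14534 genes at a mean of at least 1 CPM, are given as a description. For WNT6 these were KCTD11 (Pearson r = 0.980), MRGPRF (0.965) and PWWP2B (0.955). For WNT5B they included SESN3 (0.975) and CDRT4 (0.972). For SFRP1 they were PRC1 (0.963), SETD3 (0.953) and CYTH3 (0.952), for WNT3 TMX1 (0.966), ANKIB1 (0.957) and INTS7 (0.951), and for WNT11 GALK1 (0.953), NRARP (0.943) and TRIB1 (0.915). WNT4 was closest to GPRC5C (0.967), SNX17 (0.966) and NPPC (0.964), and WNT5A to GALNT12 (0.972), SLC12A9 (0.928) and CILP2 (0.917). With 9 points that share groups and depth, such values are the top of many and carry no test.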

How the data were processed

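The 9 HNES1 libraries (3 per group) were analysed from the raw gene-level count table that the authors deposited. Per the submitters' processing notes, the tools were Trim Galore 0.6.10 and HISAT2 2.2.1 and the genome build was GRCh38. Which tool, annotation and strandedness were used for counting is not given in the sources used here. Libraries were made with ribosomal RNA depletion, per the labels' protocols, while the molecule label reads polyA RNA, so transcript selection is uncertain. Of the entries, 5 lacked an identifier but named a gene and were kept.

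Counts were analysed in R 4.3.3 with edgeR 4.0.16: TMM scaling, the default filter by group, robust quasi-likelihood fits of all 9 libraries and two-sided tests, adjusted by Benjamini-Hochberg across all 24187 tested genes at a threshold of 0.05. Every adjusted p in the text comes from these fits. The standard error is the log2 fold change divided by the square root of F. The model by group alone is the main one, and the replicate number as a block (paired fit) is the second. Same-numbered libraries deviated together from their group means (9 correlations, 0.106 to 0.472), all above the limit of 0.1. Those between different numbers were -0.324 to 0.0753 (18 correlations), so the lowest same-number value was little above the highest of these. By the limit of 0.1 the numbers, which come from the sample titles, were taken as pairs. The series' design text says the experiment was done independently 3 times, and p-values measure the spread between these samples.

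Totals were 31651742 to 101081643 counts, and a floor of 3 counts is 0.0289 to 0.0947 CPM. Other settings were DESeq2 1.42.0, voom in limma 3.58.1, RLE, library-size and upper-quartile scaling, no filter, 1 CPM in 3 libraries, 6 libraries only, a threshold of 0.01 and leaving out libraries; most of those combined with the block, and leaving out a whole replicate number, were chosen after seeing the data. The code was tested on simulated data. All 10 members are named; of the pathway lists AXIN2, SP5, LEF1, CTNNB1, TNKS and TNKS2, and up to 4 genes per list and comparison that passed in either fit, by size of change and with a mean of at least 1 CPM in a group; and the 3 genes most correlated with each member at 1 CPM or more, of which 1 is not reported here. Others were named after their values were seen. The members and lists were chosen with earlier results of these data known. Among the markers TDGF1 is listed as CRIPTO, and ALPPL2 was not matched.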

Additional observations from a re-analysis of the deposited data

Results flagged for a closer look

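Flagged here are genes whose response differed between the 2 compounds in a test of the difference itself, PROTAC against UNC in the paired fit of edgeR. WNT6 was higher in PROTAC by a log2 fold change of 0.97, which did not pass without replicate 3 of PROTAC (0.70) or of UNC (0.75). TBXT was higher by 1.05, FZD2 by 0.98, MYC by 0.50 and PTK7 by 0.18. DACT1 was lower, at -0.42. None of the 6 passed by group alone, and the doses of the compounds differ.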

How the results depend on the processing

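The direction of every tested member's called change was the same in all settings run, and 0 of its values reversed. The number of members called in PROTAC against DMSO was 0 in all settings by group alone. It was 2 with the replicate block, and with it 2 under upper-quartile or RLE scaling, no filter, DESeq2 or limma-voom, and 1 under library-size scaling or a threshold of 0.01. In UNC against DMSO it was 1 by group alone, 2 with DESeq2 or no filter and 0 at a threshold of 0.01. With the replicate block it was 3, also under no filter, DESeq2, RLE scaling or limma-voom, and 2 under library-size or upper-quartile scaling or a threshold of 0.01. In PROTAC against UNC it was 0 by group alone, 1 with DESeq2 or no filter, and 1 with the replicate block under every scaling, filter, tool and threshold tried. Leaving out libraries or replicate numbers gave 0 to 2, 0 to 3 and 0 to 1 members in the 3 comparisons. Over all genes the calls ran from 0 to 943 in PROTAC against DMSO (0 by group alone, 21 with DESeq2, 72 with no filter, 724 paired), from 0 to 3794 in UNC against DMSO (174 by group alone, 807 with DESeq2, 834 with no filter, 3265 paired) and from 0 to 936 in PROTAC against UNC (2 by group alone, 130 with DESeq2, 246 with no filter, 703 paired). The causes of these differences were not tested. Depth limits FRZB, CER1 and DKK1, of which the last 2 could not be tested.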
